A study of Mus musculus with 6 samples.

Results

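The genes described here are 9 dual-specificity phosphatases that switch off MAP kinases: Dusp1, Dusp2, Dusp4, Dusp5, Dusp6, Dusp8, Dusp10, Dusp14 and Dusp16. They were taken by symbol from the 23179 gene rows of the deposited tables, which hold 24 genes with a Dusp number. Each member was on 1 row, and all 9 had a mean of at least 1 FPKM (sequenced fragments scaled by transcript length and by library depth), the minimum for a test that 11669 rows passed. RNA was sequenced from pancreatic islets of C57BL/6J males, 10 to 14 weeks old, that were either wild type (WT) or Ffar3-/- (KO), without the gene of a cell-surface receptor that binds short-chain fatty acids. There were 3 libraries per group, called biological replicates by the submitters, and the islets for a library came from 2 pooled pancreata. The labels name no promoter or Cre line.

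MAP kinases (ERK, JNK and p38) carry signals from growth factors, hormones, glucose and stress to the nucleus. They are active only while both a threonine and a tyrosine of their activation loop carry phosphate, and dual-specificity phosphatases remove both. Many of these phosphatase genes are themselves transcribed in response to MAP kinase, cAMP or calcium signals, which closes a negative feedback loop. The family is usually divided into inducible nuclear enzymes (Dusp1, Dusp2, Dusp4, Dusp5), cytoplasmic enzymes that prefer ERK (Dusp6, Dusp7, Dusp9), enzymes that prefer JNK and p38 (Dusp8, Dusp10, Dusp16), and small atypical enzymes such as Dusp14. In beta cells, glucose and incretin hormones raise both ERK activity and cAMP.

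Promoter sequence is shown for 4 of the 5 members that fell in KO, and matches are given below for every window searched. The windows differ in the elements through which cAMP and serum act on early genes. A link between these elements and the falls was not tested. RefSeq windows (GRCm38.p6) of 250 bases before to 50 bases after the transcription start were matched by symbol for 8 of the 9 members, all but Dusp4. Both strands were searched for the cAMP response element (CRE, TGACGTCA), its core TGACG, the AP-1 site TGACTCA, the EGR site GCGTGGGCG, the ETS site CCGGAAGT, the E-box CACGTG, the TATA box letters TATAAA, the glucocorticoid receptor element core AGAACA, the heat shock core GAANNTTC and the serum response element (CArG box). The CRE core lies inside the CRE. Matches are in capitals, and each sequence runs 5′ to 3′ along the strand of its gene.
Dusp1, chr17:26508423-26508722, minus strand: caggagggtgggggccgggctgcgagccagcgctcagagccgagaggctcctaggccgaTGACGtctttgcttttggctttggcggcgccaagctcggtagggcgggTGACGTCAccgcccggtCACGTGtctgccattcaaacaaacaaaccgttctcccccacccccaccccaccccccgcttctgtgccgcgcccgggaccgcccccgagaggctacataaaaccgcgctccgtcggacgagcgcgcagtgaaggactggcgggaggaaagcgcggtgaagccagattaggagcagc
Dusp8, chr7:142095235-142095534, minus strand: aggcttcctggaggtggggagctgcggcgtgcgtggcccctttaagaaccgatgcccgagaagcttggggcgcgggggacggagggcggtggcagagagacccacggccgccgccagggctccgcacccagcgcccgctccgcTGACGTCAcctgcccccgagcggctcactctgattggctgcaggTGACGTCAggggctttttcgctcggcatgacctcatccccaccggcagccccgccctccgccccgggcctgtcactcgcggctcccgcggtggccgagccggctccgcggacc
Dusp5, chr19:53528895-53529194, plus strand: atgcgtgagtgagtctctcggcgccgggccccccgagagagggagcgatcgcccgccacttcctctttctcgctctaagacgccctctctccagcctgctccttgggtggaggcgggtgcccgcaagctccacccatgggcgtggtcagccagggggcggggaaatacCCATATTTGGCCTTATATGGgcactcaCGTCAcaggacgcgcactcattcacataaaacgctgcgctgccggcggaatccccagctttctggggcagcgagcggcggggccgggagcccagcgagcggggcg
Dusp10, chr1:184034131-184034430, plus strand: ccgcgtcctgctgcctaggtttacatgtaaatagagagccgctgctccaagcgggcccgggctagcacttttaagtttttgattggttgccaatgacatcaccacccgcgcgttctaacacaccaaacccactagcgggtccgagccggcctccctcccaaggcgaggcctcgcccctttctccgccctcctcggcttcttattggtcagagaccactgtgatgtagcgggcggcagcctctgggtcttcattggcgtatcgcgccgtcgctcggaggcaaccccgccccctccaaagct

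The Dusp8 window held the full CRE at 2 places, which began 107 and 63 bases before the start. The Dusp1 window held 1, beginning 143 bases before the start, with an E-box at 126 bases before it. A full CRE was in 2 of the 8 member windows and in 1.79% of 32841 RefSeq windows of this length. The CRE core was in 5 of the 8 windows and in 20.8% of all windows. The member windows were 57.3% to 73.3% G and C, against a median of 52.7% over all windows. The shares over all windows are not matched for this. The Dusp5 window held 2 adjacent serum response elements, at 82 and 72 bases before the start, an element found in 1.63% of all windows. None of the searched letters was in the windows of Dusp10, Dusp6 or Dusp14. The Dusp16 window held a heat shock core and a CRE core, and that of Dusp2 an E-box and a CRE core. These matches describe letters only.

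Libraries differed in ways that touch every gene. Ffar3 was at 4.69 to 6.68 FPKM in WT and at 0 to 0.105 in KO. The islet hormone genes Gcg and Sst and the beta cell gene Ucn3 were high in all libraries. In KO they were at 45.1%, 62.9% and 55.5% of their WT means. Ucn3 was called lower (limma adjusted p = 0.0028), and Gcg and Sst did not pass (0.07 and 0.084). Ins2 was listed at 0 in all 6 libraries and Ins1 at 0 in 4 of them, the exceptions being KO replicate 2 (43700 FPKM) and KO replicate 3 (48300 FPKM). The beta cell gene Iapp was at 27400 to 36600 FPKM in the same 6 libraries, so these Ins1 and Ins2 values are not read as insulin levels. Why the rows stand at 0 was not tested. The summed FPKM of 36 acinar rows (digestive enzyme cells around the islets) ranged from 28900 to 45300 among WT libraries. For KO replicate 1 it was 27000, and for the other KO libraries 271000 (replicate 2) and 575000 (replicate 3). Across 14 B, T and plasma cell genes the sum was 8.2 to 8.87 FPKM in WT libraries, against 100, 191 and 19.2 for KO replicates 1 to 3. All 8 alpha cell genes were lower in every KO library than in every WT library. The same held for 7 of 12 tested beta cell genes and 4 of 5 tested delta and PP cell genes. Over all tested genes the share was 28.5%. In such bulk samples, fewer cells of a type and less RNA per cell cannot be told apart. Total depth is not given in the files. From the spacing of values under 0.06 FPKM, KO replicate 3 had an estimated 59.4% as many fragments behind each FPKM as WT replicate 1, against 89.4% to 119% in the others.

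The question was how the phosphatase genes of MAP kinase feedback differ between KO and WT islets. Of the 9 members, 5 fell and 2 rose in KO. Dusp1 and Dusp10, the largest falls, were at 46.2% and 47.5% of their WT means, while Dusp4 rose to 168% of its WT mean. In the same limma fit, 19.6% of all 11669 tested genes were called lower and 20.3% higher, and the median log2 difference of all tested genes was -0.011, against -0.36 for the members. At least 1 log2 unit lower were 2 of the 5, Dusp1 and Dusp10, a call made for 0.746% of all tested genes, and 0 members were that much higher, against 2.03% of all. The KO libraries lay wholly below the WT libraries for 5 members (28.5% of all tested genes) and wholly above for 2 (27.8% of all).

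**Figure D1:**
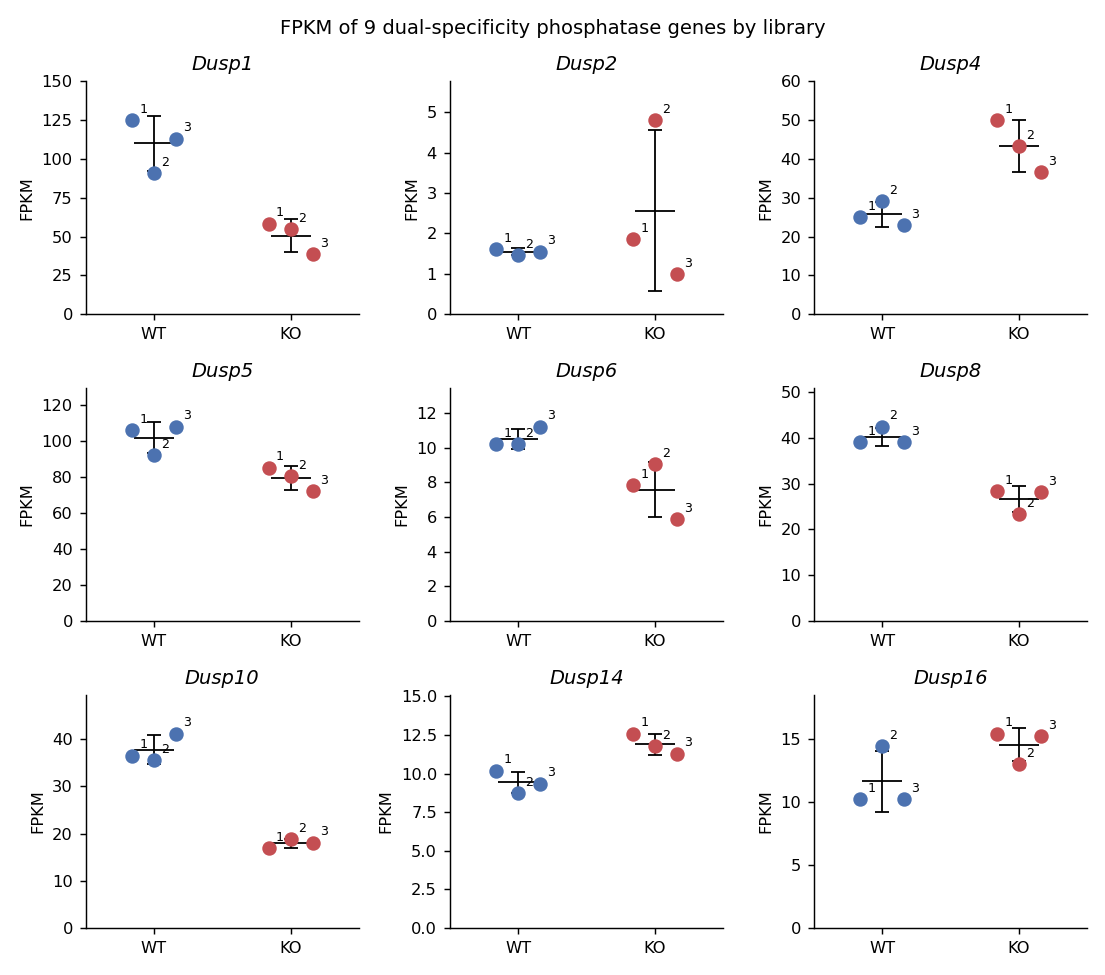
FPKM of each phosphatase gene (y axis, from 0) in the 3 WT (blue) and 3 KO (red) libraries, numbered by replicate, with the mean and SD as bars. Dusp1, Dusp5, Dusp6, Dusp8 and Dusp10 lie lower in every KO library than in any WT library, Dusp4 and Dusp14 lie higher, and Dusp2 and Dusp16 overlap.

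Dusp1 encodes MKP-1, a nuclear phosphatase made within minutes of a stimulus that acts on p38, JNK and ERK. It was at 125, 90.6 and 113 FPKM in WT replicates 1 to 3 and at 58.3, 54.9 and 38.8 in KO replicates 1 to 3. The groups did not overlap, and KO replicate 3 was the lowest of all. Its log2 difference on the scale of log2(FPKM + 1), which is used for every difference below, was -1.11 (SE 0.18, limma adjusted p = 0.0044). Against the WT mean, the KO libraries stood at -0.89, -0.97 and -1.46 on that scale, so the library with acinar transcripts near WT (KO replicate 1) had the smallest of the 3. On GRCm38 the GENCODE M21 model of Dusp1 spans chromosome 17 from 26505590 to 26562128 on the minus strand. The RefSeq window shown above (26508423 to 26508722) lies inside this model, away from its start. The model overlaps Ergic1 on the other strand. The value of Ergic1 was 46.9 to 51.6 FPKM in WT and 48.1 to 54.5 in KO.

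Dusp5 encodes a nuclear phosphatase specific for ERK. It was nearly as abundant as Dusp1 in WT, at 106, 92.3 and 108 FPKM, and was at 85.3, 80.6 and 72.1 in KO. The groups did not overlap, but the fall was smaller, to 77.8% of the WT mean (log2 difference -0.36, SE 0.09, limma adjusted p = 0.02). The call was lost without WT replicate 1 (adjusted p = 0.08), without WT replicate 3 (0.079), after adding the acinar level as a covariate (0.071), after scaling to equal sums that leave out acinar and insulin rows (0.053) and in KO replicate 1 alone against WT (-0.25, 0.099). Its direction stayed lower in all 17 alternative fits. Dusp5 lies on chromosome 19 from 53529109 to 53542431 on the plus strand, beneath an annotated antisense RNA at its start.

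Dusp4 encodes MKP-2, the close nuclear relative of Dusp1, with activity toward ERK and JNK. It moved the other way. The WT libraries were at 25.1, 29.2 and 22.9 FPKM and the KO libraries at 50, 43.3 and 36.5. Every KO library was above the highest WT library, and KO replicate 1 was the highest. The log2 difference was 0.72 (SE 0.13, limma adjusted p = 0.0065), and 0.94 for KO replicate 1 alone. Dusp4 lies on chromosome 8 from 34807297 to 34819894 on the plus strand, where no other annotated gene overlaps it.

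Dusp2 encodes PAC-1, an inducible nuclear phosphatase best known from activated lymphocytes. It was the least abundant member, at 1.62, 1.46 and 1.55 FPKM in WT and 1.86, 4.81 and 1 in KO. The WT libraries were alike, while KO replicate 2 was the highest and KO replicate 3 the lowest of the 6. The log2 difference of 0.34 did not pass (SE 0.35, limma adjusted p = 0.45), and it was -0.09 without KO replicate 2. Of the 14 lymphocyte genes, 13 were ordered the same way among the KO libraries. The exception was Cd3g at 1.44, 1.37 and 0.0705 FPKM in KO replicates 1 to 3. This order was not particular to lymphocyte genes. Of the 11 listed macrophage and myeloid genes, all but C1qa (50.1, 42.5 and 37.2 FPKM) had it too. Among them were Cd68 (3.72, 8.01 and 2.42) and Lyz2 (32.9, 94.8 and 10.3). The share of all genes with this order was not counted. The B cell gene Ms4a1 was listed at 0 in WT and stood at 3.37, 6.32 and 0.311 FPKM in KO replicates 1 to 3, and the leukocyte gene Ptprc was at 0.671 to 1.07 in WT and at 3.03, 6.64 and 0.577 in KO. Of the 14 lymphocyte genes, 12 were higher in every KO library than in every WT library. Among the 9 of them that were tested it was 8, against 27.8% of all tested genes. The part of lymphocytes or myeloid cells in the Dusp2 values was not tested.

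Dusp6 encodes MKP-3, the cytoplasmic phosphatase that anchors and inactivates ERK and is widely read as a gauge of ERK activity. Its WT values were 10.2, 10.2 and 11.2 FPKM and its KO values 7.85, 9.04 and 5.86. The groups did not overlap, with KO replicate 3 lowest, the library with the most acinar transcripts and the fewest fragments per FPKM. The part of these in the low value was not tested. The log2 difference was -0.44 (SE 0.14, limma adjusted p = 0.037). This was the least stable of the calls. It was lost without WT replicate 1, 2 or 3 (adjusted p of 0.095, 0.084 and 0.12), with no filter on low values (0.067), with that scaling to equal sums (0.081) and with the acinar covariate (0.14). The replicate number as a block also ended it (0.066). In these 7 fits the log2 difference itself ran from -0.47 to -0.36, the last with the acinar covariate. Without KO replicate 3 it was -0.29 and still passed (0.037). Dusp6 lies on chromosome 10 from 99263231 to 99267489 on the plus strand.

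Its cytoplasmic relatives went differently. Values with ± here and below are the mean and SD of the 3 libraries of a group. Dusp7, outside the 9 genes, rose from 5.69 ± 0.209 to 9.04 ± 0.308 FPKM (a log2 difference of 0.59, limma adjusted p = 0.00098). Dusp9 had at most 0.213 FPKM in any library and was not tested.

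Dusp10 encodes MKP-5, which acts on JNK and p38 in cytoplasm and nucleus. It was at 36.5, 35.6 and 41.2 FPKM in WT and 16.9, 18.8 and 18.1 in KO. The KO libraries were close to each other and all below any WT library. Its log2 difference was -1.03 (SE 0.07, limma adjusted p = 0.00037), the smallest p of the 9, and ranged from -1.11 to -0.97 over the 17 alternatives, with every one called. In GENCODE M21, Dusp10 spans chromosome 1 from 184013302 to 184075636 on the plus strand. Its RefSeq window shown above (184034131 to 184034430) lies inside this span, away from its start. On the minus strand, 1700056E22Rik lies within the span. That gene fell too, from 3.24 to 4.68 FPKM in the WT libraries to 1.66 to 1.99 in KO (log2 difference -0.83, limma adjusted p = 0.0035). The strand setting of the counting is not given in the sources used here, so reads of Dusp10 and of this partner may not be separable.

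Dusp8, an inducible phosphatase of JNK and p38 that is abundant in brain and heart, was at 39.1, 42.4 and 39 FPKM in WT and at 28.3, 23.4 and 28.2 in KO. The groups were well apart, with KO replicate 2 lowest. Its log2 difference was -0.58 (SE 0.09, limma adjusted p = 0.0033). It lies on chromosome 7 from 142079490 to 142095843 on the minus strand, the chromosome of Ffar3, but 111 Mb away from it. The RefSeq window of Dusp8 shown above (142095235 to 142095534) lies inside this GENCODE span, away from its start.

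Dusp16, or MKP-7, which shuttles between nucleus and cytoplasm and acts on JNK, leaned the other way. Its values were 10.2, 14.4 and 10.2 FPKM in WT and 15.4, 13 and 15.2 in KO. WT replicate 2 stood above KO replicate 2, so the groups overlapped. The log2 difference of 0.32 did not pass (SE 0.13, limma adjusted p = 0.099). Without WT replicate 2 it was 0.47 and passed (adjusted p = 0.018), the single alternative in which it did. Dusp16 lies on chromosome 6 from 134715468 to 134792625 on the minus strand.

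Dusp14, or MKP-6, an atypical phosphatase without the kinase-binding domain of the others, rose modestly. It was at 10.2, 8.76 and 9.36 FPKM in WT and at 12.6, 11.8 and 11.3 in KO. The groups did not overlap, and the log2 difference was 0.31 (SE 0.07, limma adjusted p = 0.016). The call was lost without WT replicate 2 (adjusted p = 0.054) or WT replicate 3 (0.061). Dusp14 lies on chromosome 11 from 84048041 to 84069261 on the minus strand. The RefSeq window searched for Dusp14 (84068308 to 84068607) lies inside this GENCODE span, away from its start.

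**Figure D2:**
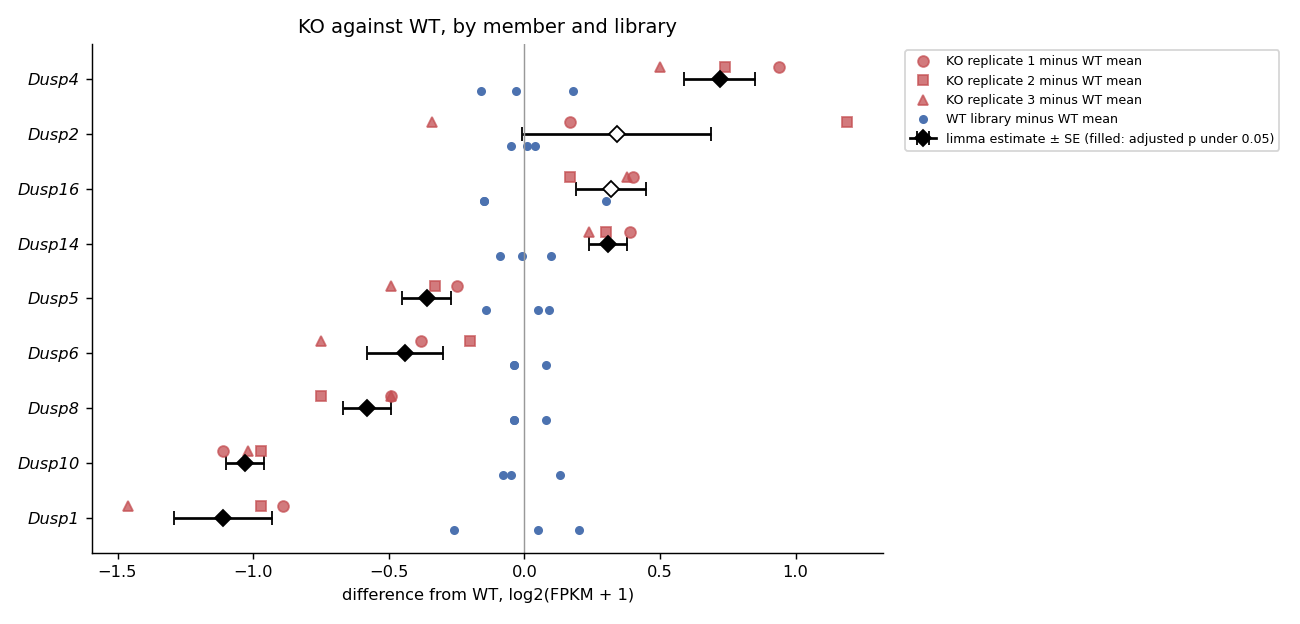
Difference from the WT mean (x axis, log2(FPKM + 1)) for each phosphatase gene, with the limma estimate and its SE as black diamonds, open where it did not pass, and single libraries as blue (WT) and red (KO) marks. Estimates run from -1.11 for Dusp1 to 0.72 for Dusp4, and the 3 KO marks of Dusp2 spread from -0.34 to 1.19.

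Single KO libraries gave much the same split. In KO replicates 1 and 2, 5 members were below and 4 above their WT mean, and in KO replicate 3, 6 were below and 3 above, the member that changed place being Dusp2. KO replicate 1, whose acinar level was not raised, was also set alone against WT, on the assumption that this library varies like the WT libraries. That fit called 4 members lower (Dusp1, Dusp6, Dusp8, Dusp10) and 2 higher (Dusp4, Dusp14), against 11.5% and 14.8% of all genes tested there.

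FPKM is scaled by length, so levels can be set beside each other. In WT the order of the means was Dusp1, Dusp5, Dusp8, Dusp10, Dusp4, Dusp16, Dusp6, Dusp14 and Dusp2. The libraries of Dusp1 and Dusp5 overlapped in WT, as did those of Dusp8 and Dusp10 and those of Dusp16 and Dusp6, while the other neighbours in that order did not. In KO the order was Dusp5, Dusp1, Dusp4, Dusp8, Dusp10, Dusp16, Dusp14, Dusp6 and Dusp2, and Dusp2 stayed last. The libraries of Dusp1 and Dusp4 overlapped there, and other neighbours did not. Dusp5 was the most abundant member in all 3 KO libraries. Dusp4 held rank 5 in each WT library and rank 3 in each KO library.

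The summed FPKM of the 9 genes was 364, 325 and 356 in WT and 276, 260 and 227 in KO. Without Dusp1 the sums were 238, 234 and 243 in WT and 218, 205 and 188 in KO, so the groups stayed apart without Dusp1, the member of highest mean in WT and second to Dusp5 in KO. Dusp1 made up 31.4% ± 3.3 of the sum in WT and 19.8% ± 2.33 in KO (n = 3 per group). The share of Dusp4 was 7.44% ± 1.37 in WT and 16.9% ± 1.01 in KO. The share of Dusp5 was 29.2% ± 0.964 in WT and 31.2% ± 0.469 in KO, a smaller gap, although each KO library was above each WT library. By class, the inducible nuclear genes held 68.5% ± 2.56 of the sum in WT and 68.9% ± 3.09 in KO, with overlapping libraries. The ratio of Dusp1 to Dusp4 FPKM was 4.99, 3.1 and 4.94 in WT and 1.17, 1.27 and 1.06 in KO. For the JNK and p38 enzymes, the ratio of Dusp10 to Dusp16 was 3.56, 2.48 and 4.04 in WT and 1.1, 1.44 and 1.19 in KO. Both ratios were lower in every KO library than in any WT library. The ratios were chosen after the values were seen. An exact two-sided permutation test of 3 libraries against 3 cannot give a p under 0.1, and no p is given for these sums, shares and ratios.

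**Figure D3:**
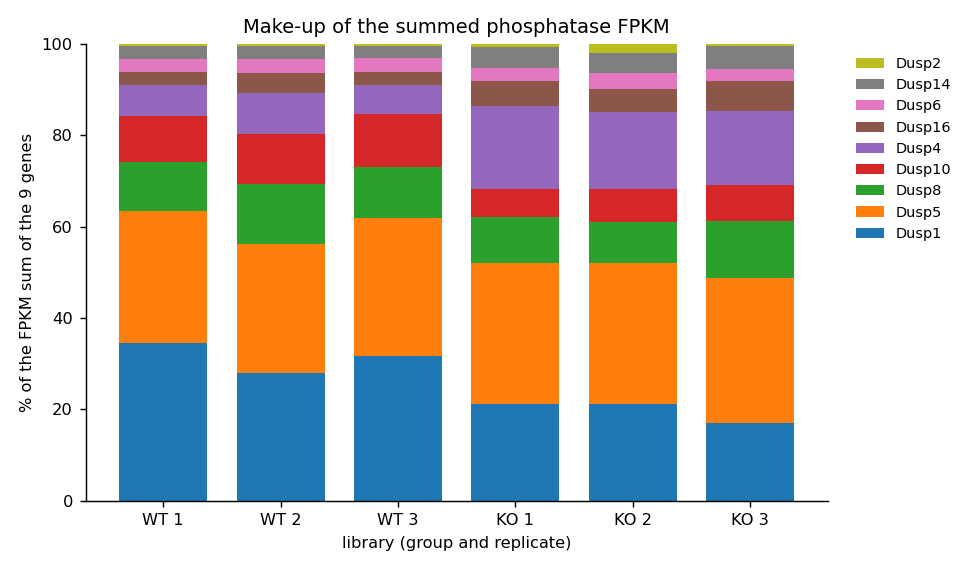
Share of each gene in the summed FPKM of the 9 phosphatase genes (y axis, %) in each library (x axis). The Dusp1 segment is 27.9% to 34.5% in WT and 17.1% to 21.1% in KO, and the Dusp4 segment is 6.42% to 8.99% in WT and 16.1% to 18.1% in KO.

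Likeness of pattern was measured as the root mean square distance over the 6 libraries between log2 values set to their WT mean, among 10681 named genes. Among the nearest to Dusp1 were the chromatin gene Hmgb2 (distance 0.103) and the AP-1 gene Junb (0.138). Junb was at 311, 227 and 296 FPKM in WT and 172, 164 and 107 in KO, with WT replicate 2 lowest in WT and KO replicate 3 lowest in KO, as for Dusp1. For Dusp10 the nearest were Dcun1d3, Arhgap24 and Dbpht2 (0.088 to 0.104), and for Dusp4 they were Cidea, Hdac5 and Ddx58 (0.077 to 0.092). Dusp5 lay nearest to Mcc, Nsf and Nlgn2, Dusp6 to Ercc2, Ier5l and Fbxl19, Dusp8 to Zfp133-ps, Rab13 and Bad, Dusp14 to Ppp6r1, Tmprss2 and Eno1, and Dusp16 to Nipa2, Sc4mol and Ccdc8. The nearest to Dusp2 were H2-DMb1, which encodes a chaperone of antigen presentation, Ppp1r18 and Cyth4 (0.1 to 0.119). H2-DMb1 was at 2.24 to 2.65 FPKM in WT and at 3.18, 5.92 and 1.66 in KO. Among the members, the closest pair was Dusp5 and Dusp6 (0.141), the farthest Dusp1 and Dusp4 (1.316). With so many genes that differ by genotype, such likeness is a description.

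The kinases that these enzymes dephosphorylate were measured in the same libraries. Mapk3, Mapk8 and Mapk9 were named after their values were seen. Mapk3 (ERK1) averaged 113 ± 3.07 FPKM in WT libraries and 95.1 ± 8.55 in those of KO (log2 difference -0.25, limma adjusted p = 0.039). Neither Mapk8 (JNK1) nor Mapk9 (JNK2) passed (-0.05 and -0.08, limma adjusted p of 0.56 and 0.23). Mapk14, the main p38 gene, rose from 35.9 ± 1.09 to 58.3 ± 1.26 FPKM (log2 difference 0.68, limma adjusted p = 0.00045).

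The counts of each list below are to be read against the 20.3% of all tested genes that were called higher and the 19.6% called lower. Of 28 tested genes of the JNK and p38 cascades, 9 rose (32.1%) and 4 fell (14.3%). Besides Mapk14, Spag9, a JNK scaffold, rose from 10.7 ± 0.677 to 24.8 ± 1.41 FPKM, and Map2k4, a kinase that activates JNK, from 9.01 ± 0.362 to 16.9 ± 1.17. Of 27 genes of the Ras, Raf and ERK cascade, 7 rose (25.9%) and 5 fell (18.5%), both near the shares over all genes. The small GTPase gene Rras2 rose from 7.93 ± 0.452 to 14.1 ± 0.975 FPKM, and Braf, from 11.6 ± 0.585 to 17 ± 1.2. Among 10 kinases activated by MAP kinases, 4 rose (40%) and 0 fell, at a median of 0.42. Rps6ka5, which encodes the nuclear kinase MSK1, rose from 1.16 ± 0.161 to 4.74 ± 0.509 FPKM, and the p38 effector Mapkapk3 from 3.75 ± 0.496 to 7.66 ± 1.15. Of 6 ERK5 and atypical MAP kinase genes, 3 rose (50%) and 1 fell (16.7%), with Mapk6 rising from 23.7 ± 1.88 to 35.3 ± 1.86.

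Other brakes on the pathway were counted next. Of 12 tested Sprouty, Spred and related ERK feedback inhibitors, 3 rose and 3 fell (25.0% each), near the shares over all genes. Spry2, an inhibitor of receptor tyrosine kinase signalling, was at 2.93, 3.72 and 2.75 FPKM in WT and 10.4, 9.9 and 8.66 in KO (log2 difference 1.37, SE 0.11, limma adjusted p = 0.00052). Its relative Spry1 fell from 3.5 ± 0.555 to 1.41 ± 0.191 FPKM (-0.90, limma adjusted p = 0.0023). Of 10 other MAP kinase phosphatases, 4 rose (40%) and 1 fell (10.0%), with Dusp7 the smallest p. Among 13 further phosphatases of the family, 4 fell (30.8%) and 2 rose (15.4%). Dusp18, a small atypical enzyme, fell from 34.6 ± 2.25 to 20.9 ± 1.32 FPKM, and Dusp11, an RNA phosphatase, rose from 12 ± 0.444 to 19.2 ± 2.28.

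Genes on the output side were also counted. Of 21 transcription factors that act at early gene promoters, 11 fell (52.4%) and 2 rose (9.52%), at a median of -0.32. Egr1 fell from 229 ± 46.4 to 82.9 ± 2.85 FPKM and Egr2 from 4.24 ± 0.119 to 0.996 ± 0.207. Of 13 ERK output genes, Egr1 again among them, 5 rose (38.5%) and 4 fell (30.8%). Spry2, given above, had the smallest p of these. The other genes of the list that rose were Myc, Plaur, Epha2 and Etv5, named after their values were seen. Myc, a transcription factor of cell growth, was at 2.37, 2.6 and 2.88 FPKM in WT and 6.38, 17.7 and 17.1 in KO (log2 difference 1.91, limma adjusted p = 0.0063). Plaur, the urokinase receptor gene, was at 5.86, 5.31 and 4.41 in WT and 11.6, 48.6 and 25.9 in KO (2.06, limma adjusted p = 0.011). In both, KO replicates 2 and 3, the libraries with raised acinar transcripts, were well above KO replicate 1, for which alone the difference was 1.03 in each gene and passed (limma adjusted p of 0.0023 and 0.0041). Epha2 rose from 2.25 ± 0.047 to 5.93 ± 2.76 FPKM and Etv5 from 13.2 ± 1.84 to 19.8 ± 3.5 (limma adjusted p of 0.016 and 0.02). The cyclin gene Ccnd1 fell from 59.2 ± 3.22 to 35.4 ± 1.58 FPKM, and Ier2 from 78.3 ± 13.8 to 43 ± 4.43. Of 14 JNK and p38 output genes, 5 fell (35.7%) and 3 rose (21.4%). Jun fell from 353 ± 83.8 to 131 ± 17.6 FPKM, the stress gene Ddit3 from 390 ± 48.3 to 140 ± 33.4 and Gadd45g from 157 ± 17.6 to 84.8 ± 8.42.

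Upstream and turnover genes were counted as well. Of 12 EGF and FGF family ligands and receptors, 3 rose (25.0%) and 2 fell (16.7%). The EGF receptor ligand Areg rose from 0.715 ± 0.188 to 2.4 ± 0.445 FPKM. Of 12 genes of AU-rich element binding and mRNA turnover, 3 fell (25.0%) and 1 rose (8.33%). The antiproliferative genes Btg2 and Btg1 fell from 187 ± 35 to 71.9 ± 7.96 FPKM and from 82 ± 6.94 to 48.6 ± 4.87. Of 9 glucocorticoid responsive genes, 3 fell (33.3%) and 2 rose (22.2%), with Tsc22d3 (GILZ) falling from 32.2 ± 1.39 to 25.7 ± 1.06 FPKM.

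**Figure D4:**
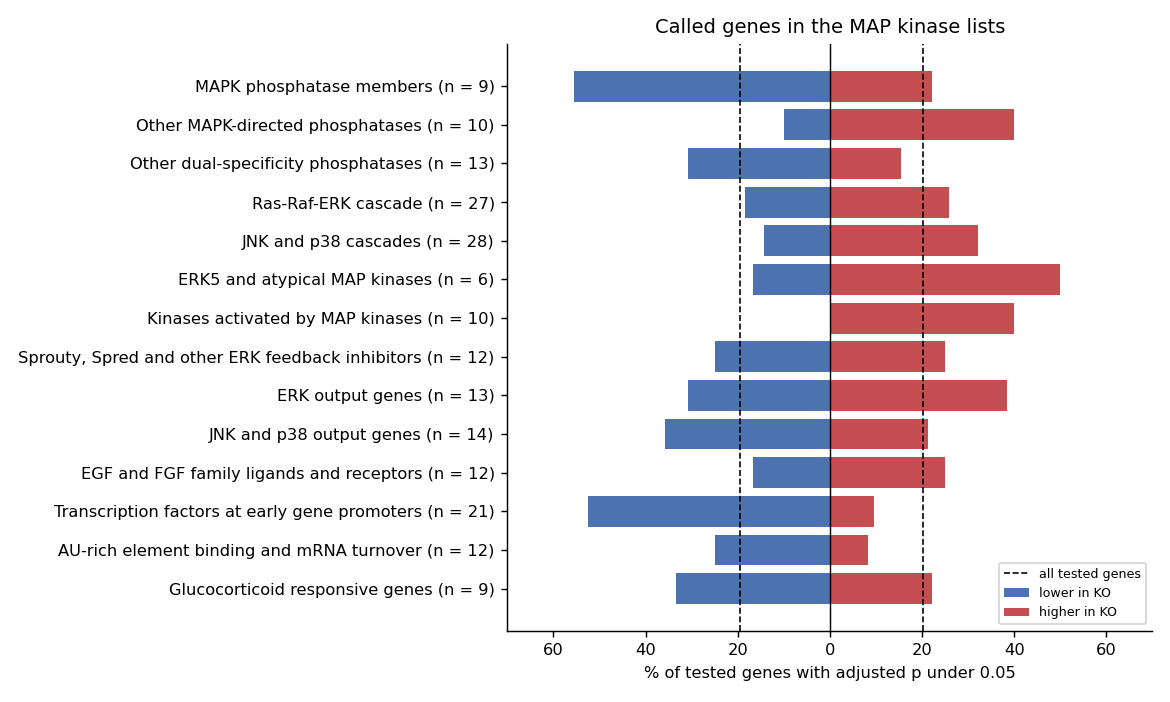
Share of the tested genes of each list (x axis, %) that were called lower (blue, left) or higher (red, right) in KO, with the shares over all tested genes, 19.6% and 20.3%, as dashed lines. Of the 9 phosphatase genes 55.6% were lower and 22.2% higher, and lists hold 6 to 28 genes, so single genes move these shares by several points.

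Of the 50 list genes with the smallest p in their lists (up to 4 a list), 39 were called in every alternative that tested them and 11 lost the call in at least 1. Those of the 50 described above as risen or fallen belong to the 39, so the text shows the steadier part of the lists. Outside these 50, Mapk3 kept its call in 7 of 17, Myc and Plaur were called in all 17 alternatives, Etv5 in 15 of 17 and Epha2 in 13 of 16. Epha2 was lost without WT replicate 1 or 3 (adjusted p of 0.057 in each) and with the acinar covariate (0.062), and Etv5 without WT replicate 1 (0.079) or 3 (0.075). The calls of Dusp1, Dusp8, Dusp10 and Dusp4 held in all 17 alternative fits. Dusp1 ranged from -1.24 to -0.89, Dusp8 from -0.62 to -0.49 and Dusp4 from 0.62 to 0.94. Dusp14 was called in 15 of 17, Dusp5 in 12 and Dusp6 in 10.

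**Figure D5:**
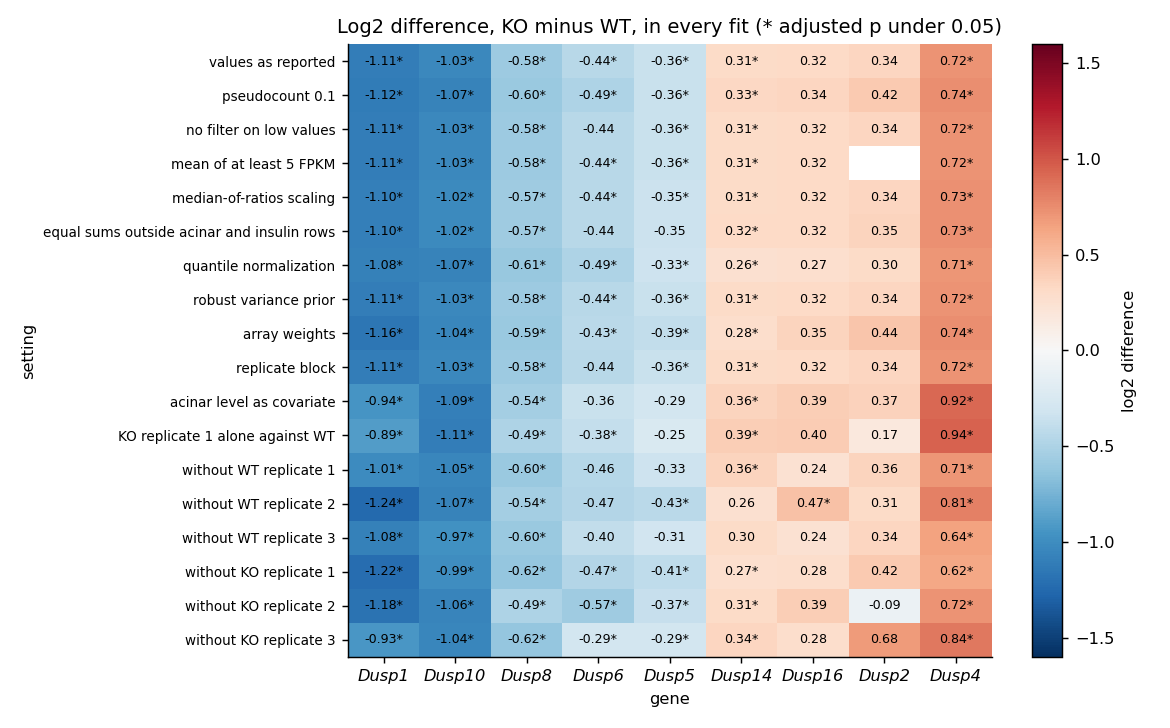
Log2 difference, KO minus WT, of each phosphatase gene (columns) in each fit (rows), with a star where the adjusted p was under 0.05; a blank marks a gene that the filter removed. Dusp1, Dusp10, Dusp8 and Dusp4 carry a star in every row, and Dusp2 is the single gene whose sign changes.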

How the data were processed

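RNA sequencing libraries of islets from 3 WT and 3 KO pools were compared, grouped and numbered by their titles. TopHat2 2.0.8b, Cuffdiff 2.1.1 and build mm10 are named in the submitters' processing notes; for annotation, strand and scaling the entry is "not given in the sources used here". FPKM is the unit assumed for what the authors deposited: Cuffdiff writes it, and the file headers name none. An FPKM value depends on how its library was scaled, and total depth is unknown. The deposited values summed to 416935 in KO replicate 1 and to 1056344 in KO replicate 3. Their median-of-ratios factors were 0.995 to 1.005, so at the median gene the libraries were already level despite these unlike sums. P-values measure the spread between these libraries, which the submitters call biological replicates.

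Rows with a mean of at least 1 FPKM were tested on log2(FPKM + 1) with limma 3.58.1 in R 4.3.3 (lmFit and trended eBayes, two-sided, with group as sole term and Benjamini-Hochberg adjustment over all tested rows at a threshold of 0.05). Members and lists were chosen with earlier results of these data known. All 9 members were named, and from each pathway list up to 4 genes of smallest p; fewer are printed, and some genes are not reported here. Of 348 list genes, 344 were found by symbol and 3 by an older symbol. Data were simulated with the real means and spreads of 11669 genes, of which 200 were changed, and with noise independent between genes. Of genes changed by 1 log2 unit 86.5% were recovered, and of those changed by 0.5, 49.5%. In these runs 2.25% and 9.17% of the calls were false. In the real data 2368 genes were called higher and 2289 lower, so these rates need not hold there. Alternatives were a pseudocount of 0.1, no filter or a minimum of 5 FPKM, 3 other scalings, a robust prior, array weights, a replicate block, the mean log2 acinar level as a covariate, KO replicate 1 alone, and each library left out. Positions are from GENCODE M21 on GRCm38, which mm10 denotes, and promoters from RefSeq on GRCm38.p6. Tables and plots used Python 3.11.15 and matplotlib 3.10.9.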

Additional observations from a re-analysis of the deposited data

How the results depend on the processing

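The count of members called lower was 5 and went to 3 with scaling to equal sums that leave out acinar and insulin rows, and to 3 with the acinar level as a covariate, in both of which Dusp5 and Dusp6 were lost; leaving out single libraries gave 3 to 5. The count called higher was 2 in every fit except without WT replicate 3, where it was 1; without WT replicate 2 the 2 were Dusp4 and Dusp16, not Dusp14. Leaving out libraries gave 1391 to 2891 for all tested genes called higher (2368) and 1091 to 2839 for those called lower (2289), which was 1415 with the acinar covariate and 1317 with KO replicate 1 alone set against WT; the cause was not tested. The log2 difference of the summed members was -0.46 and ranged from -0.52 to -0.38 without single libraries. Dusp2 alone reversed, to -0.09 without KO replicate 2, and over single libraries left out it ranged from -0.09 to 0.68. Over single genes, 1014 of the alternative values kept their direction and side of the threshold, 92 lost a call and 1 gained one.

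Deviations from the group mean correlated over genes at -0.21, -0.09 and 0.03 between same-numbered libraries. Between libraries of other numbers the correlations ran from -0.16 to 0.20. With 3 libraries per group, and KO replicates 2 and 3 set apart by acinar transcripts, these values cannot decide whether the numbers pair libraries. With the replicate block, 1988 genes were called higher and 1877 lower, and 4 members lower, Dusp6 being lost (adjusted p = 0.066). Total depth is unknown, which limits what can be said of Dusp2, the member of lowest FPKM. Dusp2 has no value at a minimum of 5 FPKM.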
